A study of Mus musculus with 2 samples.

Results

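Cytosolic ribosomal protein (RP) genes encode the proteins that, with the ribosomal RNAs, build the large and the small subunit of the ribosome in the cytosol. They were taken by name, as gene rows named Rpl or Rps followed by a digit, together with Rpsa, Rplp0, Rplp1 and Rplp2. Rows with -ps in the name, which marks a pseudogene, rows starting with Rps6k, which encode kinases, and genes with fewer than 50 counts in all were left out. Of the 35163 genes in the table, 89 carried such a name and 85 had enough counts. Rpl39l, Rpl10l, Rps4l and Rpl6l, with 3, 2, 6 and 13 counts, did not. By name, 45 of the 85 belonged to the large subunit and 31 to the small subunit, and these 76 are called core genes below. Another 4 were paralogs (Rpl3l, Rpl22l1, Rps27l and Rpl36al), 3 were retroposed copies (Rps3a2, Rps27rt and Rpl37rt), and 2 encode other proteins, Rps19bp1, a binding partner of the Rps19 protein, and Rpl7l1, a relative of Rpl7. The GENCODE M21 annotation types Rps3a2 and Rpl37rt as processed pseudogenes. Their names lack -ps, so that they stayed among the members. Rpl13 was not analysed here.

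The cells came from the flexor digitorum brevis, a fast-twitch muscle of the foot, of an untreated C57BL/6J mouse over 3 months old. For the study as a whole, the paper names male mice of C57BL/6J and DBA2 background. After collagenase digestion, whole fibers from a large particle sorter and fragments from a pseudo-biopsy, 763 in all, were placed singly into 96-well plates. They were profiled on 2 sequencing lanes with mcSCRB-seq, which tags each captured RNA molecule with a unique molecular identifier (UMI). Each cell is labelled with 1 of 8 library index values, from 705 to 712. The cells of 1 index value are called a plate here, which was inferred and is not a label of the data. The 171 cells in which over 5000 genes were found and mitochondrial genes held under 20% of counts are called kept, and the other 592 are called excluded. Kept cells were classed by the largest of Myh1, Myh2, Myh4, Myh7 and Myh8, the myosin heavy chains that define fiber types, which gave 117 fast 2X, 51 fast 2A, 2 slow and 1 fast 2B cells. All groups came from 1 mouse, so that cells are not replicates and no p-value was computed. The myofiber markers Acta1, Ckm, Ttn, Tnnt3, Mylpf and Pvalb were all found in every group, and they summed to 129733 CPM in the kept cells and 96652 CPM in the excluded cells.

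Levels are given as CPM, the UMI counts of a gene scaled to the same nuclear total in every group, with the mitochondrial genes left out of that total. Summed nuclear counts were 48812837 in the kept cells, from 23951 to 1438767 per cell, and 7406303 in the excluded cells, from 17 to 112949 per cell. The 95% limits beside a value cover counting error only, not the spread between animals. In pooled counts, fewer cells of a type and less RNA per cell cannot be told apart. Markers of 6 other cell types that lie between the fibers (endothelial, smooth muscle and pericyte, fibro-adipogenic and tendon, satellite, Schwann and immune cells; 36 genes) were present in both groups, with none of the 36 at 0. They summed to 438 CPM in the kept cells (107 to 16617 per cell, median 335) and 1905 CPM in the excluded cells (0 to 17857 per cell, median 951). This difference is set beside the results it moves with.

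RP genes are transcribed at high levels in most tissues, and their protein products are made in matched amounts, since a ribosome holds each of them in fixed proportion. Many of their transcripts begin with a C followed by a run of pyrimidines at the transcription start, a motif through which the mTOR pathway and the RNA-binding protein Larp1 regulate their translation. Striated muscle carries a form of its own for one position in the large subunit. There Rpl3l, a paralog found mainly in skeletal muscle and heart, is made alongside or in place of the ubiquitous Rpl3, which contributes to the core of the peptidyl transferase centre.

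The start sites are shown because they hold a sequence feature that the choice by name did not use. Of the 85 members, 64 had an entry among the RefSeq promoter windows of GRCm38.p6, with 76 windows in all. A pyrimidine tract, here a C followed by at least 6 further C or T bases and lying within the 20 bases on either side of the listed start, on the coding strand, was found in 44.7% of the member windows and in 18.7% of all 32851 windows. The following 30-base windows, with 15 bases before and 15 from the start on, hold a tract in members that differ in their later results, and the window of Rpl3l holds none. Capitals mark the tract as far as it lies inside the window. Their positions are chr14:18270972-18271001 on the minus strand (Rpl15), chr17:33955651-33955680 minus (Rps18), chr9:120571502-120571531 plus (Rpl14), chr7:45128731-45128760 minus (Rpl13a) and chr17:24727811-24727840 plus (Rpl3l).
Rpl15: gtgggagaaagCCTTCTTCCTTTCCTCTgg
Rps18: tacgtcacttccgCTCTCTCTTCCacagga
Rpl14: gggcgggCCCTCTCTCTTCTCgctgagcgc
Rpl13a: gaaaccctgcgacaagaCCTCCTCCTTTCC
Rpl3l: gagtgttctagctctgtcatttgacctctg

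In the 300-base windows (250 bases before the start and 50 after it, both strands searched), CCGGAA, the core of the binding motif of ETS factors, was present in 47.4% of the member windows and in 14.9% of all windows. AAGATGG, the core of the YY1 motif, was present in 15.8% against 6.34%. TATAAA, the TATA box, was less common among members, at 9.21% against 13.6%, and so was CANNTG, the E-box bound by MyoD and related factors, at 51.3% against 72.3%. Matches of different motifs may overlap, and a match only describes the letters. The 250 bases before a RefSeq start of Rpl3l (chr17:24727576-24727825, plus strand) held 3 E-boxes, marked in capitals.
Rpl3l: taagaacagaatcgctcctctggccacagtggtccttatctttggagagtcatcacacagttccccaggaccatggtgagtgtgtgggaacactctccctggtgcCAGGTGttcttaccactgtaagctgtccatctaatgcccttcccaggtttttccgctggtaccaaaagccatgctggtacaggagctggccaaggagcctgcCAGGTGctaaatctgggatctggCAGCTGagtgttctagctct

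Whether Rpl3 and Rpl3l can be told apart by the reads bears on every comparison of the pair. In GRCm38, Rpl3 lies at chr15:80077791-80091868 on the minus strand and Rpl3l at chr17:24727820-24736143 on the plus strand. Their coding sequences align over 1206 bases with 896 identical (74.3%), and the longest identical run is 22 bases. No stretch of 66 bases, the length of the cDNA read, is shared by their transcripts. Positions 1127 to 1186 of both coding sequences are shown here as the last 60 aligned bases without a gap, with the 18 differing bases in capitals.
Rpl3: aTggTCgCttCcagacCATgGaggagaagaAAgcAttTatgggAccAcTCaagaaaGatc
Rpl3l: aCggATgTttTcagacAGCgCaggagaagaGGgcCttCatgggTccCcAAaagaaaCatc
Rpl3l shared none of its 66-base stretches with any other gene. Rpl3 shared 84.1% of its stretches with other genes, chiefly the pseudogene row Rpl3-ps1 (79.4%), which itself held 111 counts, and whether Rpl3 reads were lost as ambiguous was not tested.

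The 85 members made up 2.06% of the nuclear counts of the kept cells (20634 CPM, 1007223 counts). Per cell the share ranged from 0.734% to 4.45%, with a median of 1.99% and quartiles of 1.76% and 2.32%. The median kept cell had counts for 84 of the 85 members and the poorest for 60. Among the members with high CPM, Rpl3l had 748 (95% limits 740 to 756), and its cells ranged from 88.8 to 1452 CPM with a median of 788. Rplp1, an acidic protein of the ribosomal stalk, had 732 CPM, Rps14 had 655 and Rpl8 had 649.

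Per kilobase of coding sequence, Rplp1 had 2142 CPM and Rpl3l had 613, and Rpl3l was then at rank 23 of the 83 members with a coding sequence. In this assay a molecule is counted once near its poly(A) end, so that CPM needs no correction for length. The values per kilobase are given as a description only. At the low end were Rps3a2 at 2.58 CPM, Rps19bp1 at 16.5, Rps27rt at 18.4, Rpl3 at 19.3 (limits 18.1 to 20.5) and Rpl7l1 at 20.2. Rpl3 was thus the lowest of the 76 core genes on both scales, with 15.9 CPM per kilobase, and the core genes had a median of 205 CPM. Of the low members, Rps3a2, Rps27rt and Rpl3 shared 87.8%, 90.6% and 84.1% of their 66-base stretches with other genes, so that their own counts, and the rank of Rpl3, are uncertain.

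**Figure D1:**
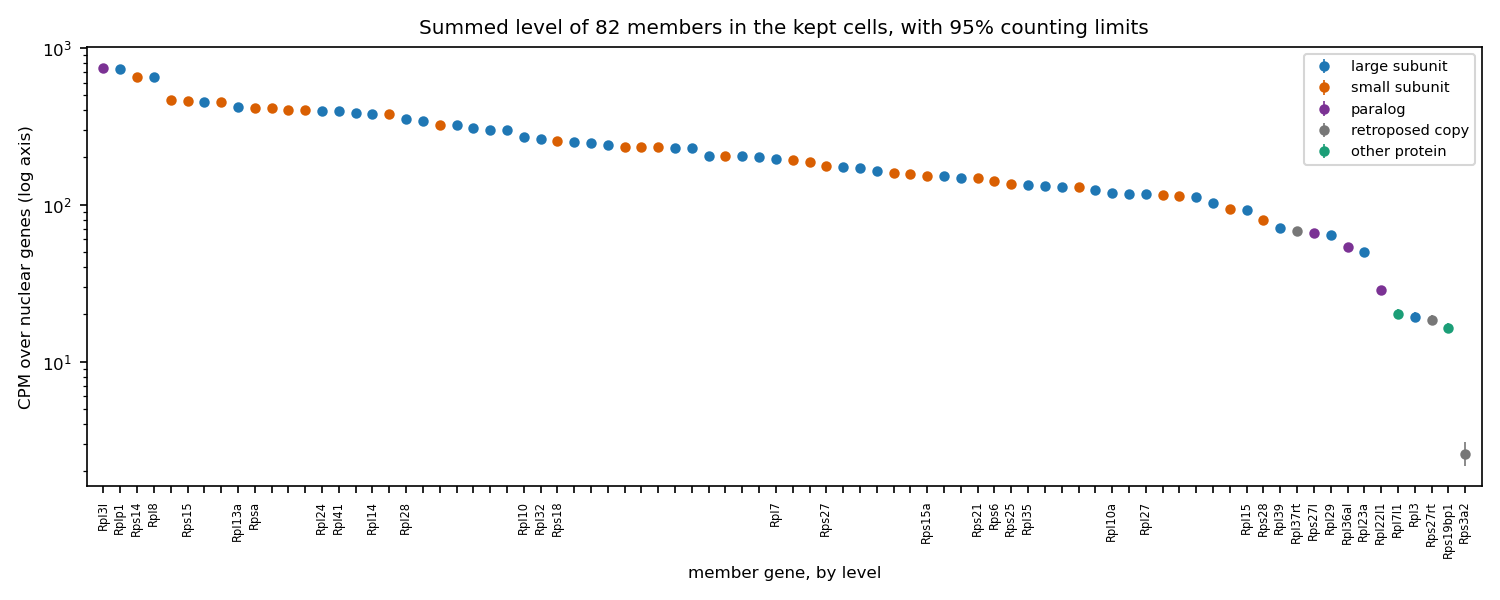
Level of 82 of the 85 members in the 171 kept cells, as summed CPM over nuclear genes on a log axis, with 95% counting limits, colors for the kind of gene and names for the members described in the text. Rpl3l (748 CPM) lies at the high end, and Rpl3 (19.3 CPM) lies among the retroposed copies and non-ribosomal relatives at the low end.

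The large subunit genes summed to 10938 CPM and the small subunit genes to 8674 CPM in the kept cells. Large subunit counts per small subunit count were 1.26 (95% limits 1.26 to 1.27) in kept cells, 1.26 in fast 2X, 1.25 in fast 2A, 1.26 in slow and 1.25 in the 2B cell. In the excluded cells the ratio was 1.23 (limits 1.21 to 1.24). Across the 171 kept cells the large and small subunit shares had a Pearson correlation of 0.95 and a Spearman correlation of 0.92. Both shares come from the same library and total. After removal of counting noise, the core genes varied between kept cells with a median coefficient of variation of 32.1% (quartiles 25.9% and 38.5%). It was 42.0% for the 6037 genes with counts in the same range, which were not matched to the core genes within that range. Rpsa, the laminin receptor and small subunit protein, varied least among the core genes at 18.8%, and Rps21 most at 75.1%. The Rps21 level had a median of 127 CPM over the kept cells, quartiles of 93.2 and 161, and a highest cell of 1046. How far single outlying cells set this coefficient was not tested.

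RP share followed the depth of a cell only weakly. Over the kept cells its Spearman correlation was 0.14 with nuclear counts, -0.16 with the mitochondrial share and -0.13 with the markers of other cell types. The mitochondrial ribosome translates the mitochondrial genome, and 76 other nuclear genes were taken for it by the names Mrpl and Mrps alone. Their share moved with the RP share, with a Pearson correlation of 0.68 and a Spearman correlation of 0.62 across the 171 cells. Elongation factors correlated at 0.37 and 0.29 and ribosome biogenesis factors at -0.03 and -0.01. These cells share plates, and all shares have the same denominator.

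The comparison of fast 2A with fast 2X cells asks whether the main fiber types of this muscle differ in RP expression. The share was 2.09% in fast 2A cells (1.31% to 3.09% per cell, median 2.01%) and 2.06% in fast 2X cells (0.734% to 4.45%, median 1.99%), and the groups overlapped over the whole fast 2A range. The log2 ratio was 0.02 (95% limits 0.02 to 0.03). Its sign was not kept. Fast 2A was higher in 2 of the 8 plates and lower in 6, with log2 ratios from -0.13 to 0.21. It was -0.04 within lane 1 and 0.05 within lane 2. Leaving out plate 705 or plate 712 turned it to -0.01, and without plate 708 it was 0.06. The 2 slow cells had 1.67% and 2.18%, and the single 2B cell had 1.47%.

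**Figure D2:**
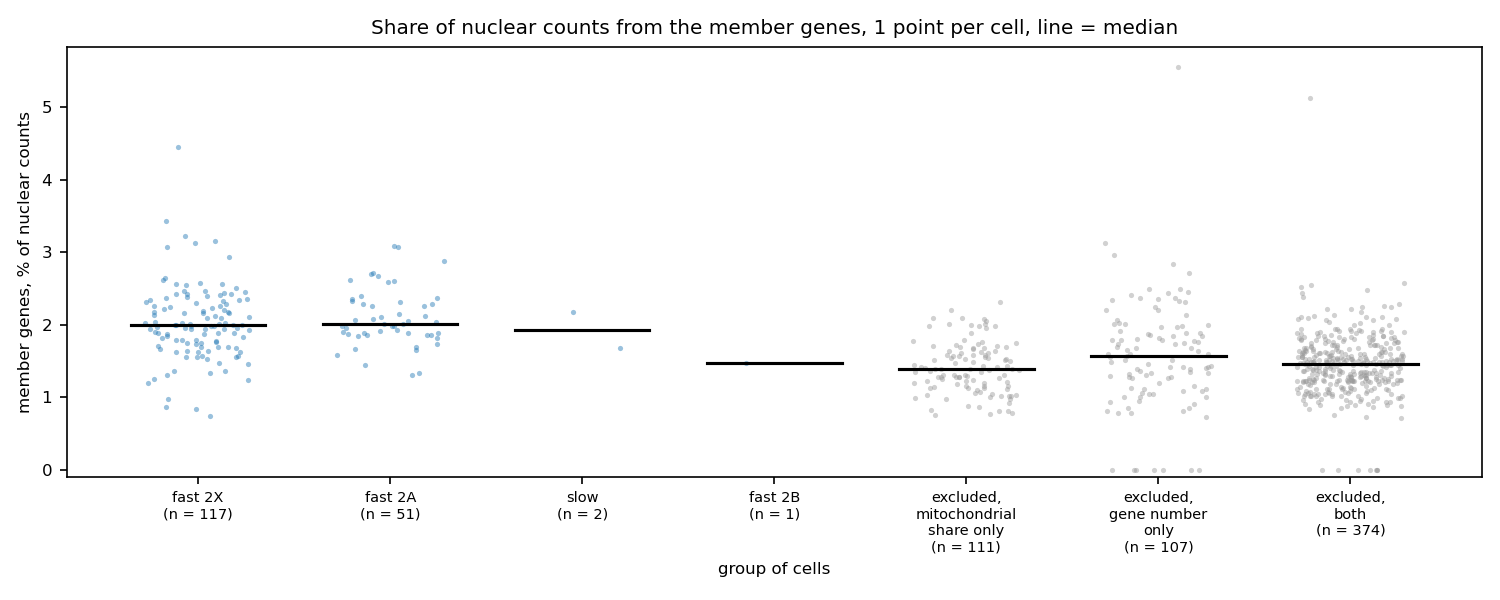
Share of nuclear counts from the 85 members, in percent, with 1 point for each cell and a line at the median, for the 4 classes of kept cells and the 3 classes of excluded cells. The fast 2X and fast 2A medians lie at 1.99% and 2.01%, and the excluded classes at 1.39%, 1.57% and 1.45%.

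None of the 85 members differed by 1.5-fold or more between fast 2A and fast 2X, with 0 higher and 0 lower. Among the 20067 nuclear genes with at least 50 counts, 7.11% were at least 1.5-fold higher and 17.8% at least 1.5-fold lower in fast 2A. Read against genes with at least 500 counts, as 84 of the members had, the background was 3.05% and 7.20%. The member ratios had a median of 0.02 and quartiles of -0.08 and 0.09, and all 20067 genes had a median of -0.11. Both scaling methods that assume most genes alike shifted every ratio by 0.09 to 0.10 towards fast 2A, which is more than the median of the members.

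Rpl3 had the highest ratio, with a log2 of 0.40 (95% limits 0.19 to 0.62), from 17.2 CPM in fast 2X (median cell 13.4, highest 264) to 22.7 CPM in fast 2A (median cell 17.7, highest 422). It was at 0 in 24 of 117 fast 2X and 7 of 51 fast 2A cells, and the groups overlapped. Rps15a (0.21), Rpl41 (0.19), Rpl28 (0.19), Rpl35 (0.17), Rpl29 (0.15), Rpl39 (0.14) and Rpl13a (0.14) followed, all with counting limits above 0. Rpl41, the smallest ribosomal protein, had 437 CPM in fast 2A against 382 in fast 2X. Its median cells had 429 and 355 CPM and the groups overlapped.

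The lowest ratios belonged to members outside the core genes, which were set by name. Rps19bp1 had a log2 of -0.55 (limits -0.83 to -0.28), with 12.2 CPM in fast 2A and 17.8 in fast 2X. Rps27l, a paralog of Rps27 known as a p53 target, had -0.37 (limits -0.51 to -0.25), with 54.0 CPM in fast 2A (median cell 52.1, highest 117) and 70.1 CPM in fast 2X (median cell 65.2, highest 280). Rpl7l1 had -0.36. Among core genes the lowest were Rpl23a (-0.25), Rpl10a (-0.24), Rpl10 (-0.23), which sits near the peptidyl transferase centre, Rpl7 (-0.18) and Rpl32 (-0.16).

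Of the ribosomal proteins with other names, Fau, a ubiquitin-like protein fused to a small subunit protein, had a log2 ratio of 0.06 (limits 0.01 to 0.11), and Rack1, a scaffold on the small subunit, had -0.11 (limits -0.16 to -0.05). Within the other translation lists, to be read beside 7.11% higher and 17.8% lower over all nuclear genes, none of 49 initiation factors passed 1.5-fold. Of 8 elongation factors 1 was lower, Eef1a1 at -0.65 (61.7 against 97.1 CPM), the widely expressed form of the factor that brings tRNA to the ribosome, while its muscle form Eef1a2 was at 0.06. Of 42 biogenesis factors 3 were lower and 0 higher, with Tsr1 at -0.80 and Nop16 at -0.66 lowest among those with 500 counts and Polr1a, the largest subunit of RNA polymerase I, highest at 0.55. The mitochondrial ribosome genes summed to 4176 CPM in fast 2A and 3886 in fast 2X, a log2 ratio of 0.10, with 1 of 76 lower and 0 higher. Among 11 regulators, Eif4ebp2, a repressor of initiation that is also in the initiation list, was at -0.50.

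The excluded cells show how RP transcripts fared in cells that did not pass the filters. They held 1.46% RP counts (14605 CPM), compared with 2.06% in kept cells, and the log2 ratio was -0.50 (95% limits -0.51 to -0.49). The 111 cells excluded only for their mitochondrial share had 1.40% (0.758% to 2.32% per cell, median 1.39%), the 374 excluded for both reasons had 1.49%, and the 107 with too few genes only had 1.84%. Their log2 ratios to the kept cells were -0.56, -0.47 and -0.17. The 6 myofiber markers were also lower, at 96652 CPM in excluded cells against 129733 CPM in kept cells. They stood at 86239 CPM in the cells excluded only for their mitochondrial share. Across those 111 cells the RP share correlated with these markers at 0.41 (Pearson) and 0.38 (Spearman). Across the kept cells the values were 0.12 and -0.13. How far the 2 differences go together was not tested. The excluded 90 fragments had 1.44% and the excluded 502 whole myofibers 1.47%. In 14 excluded cells no RP count was found. The per-cell ranges overlapped, but the pooled share was lower in the excluded cells of all 8 plates, with log2 ratios from -0.61 to -0.38.

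**Figure D3:**
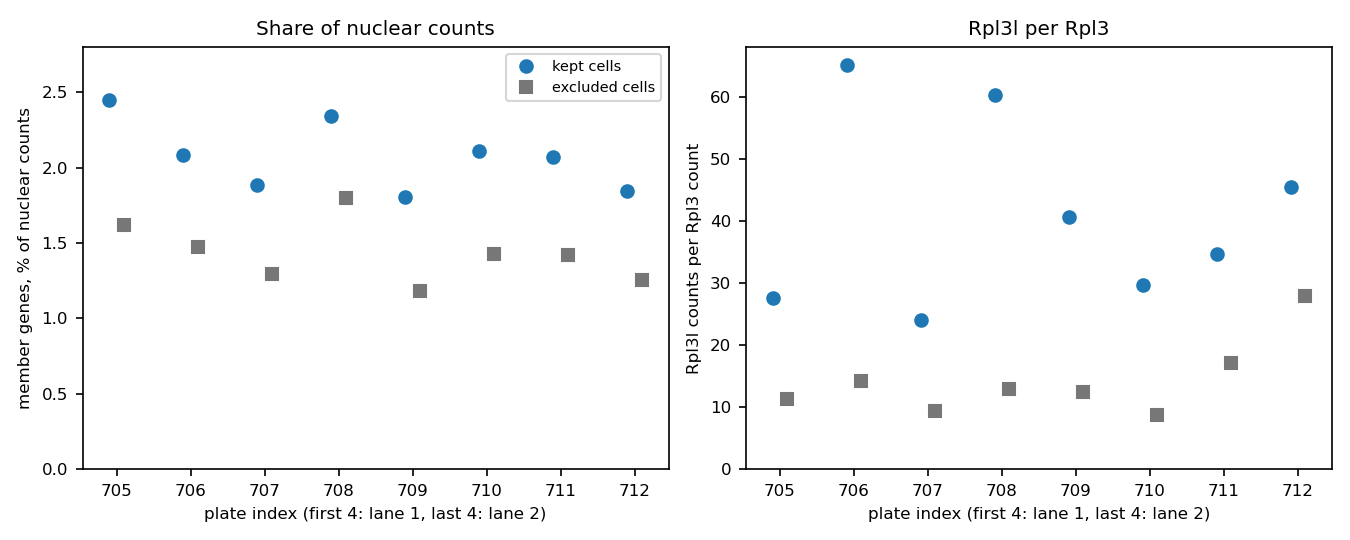
Left, share of nuclear counts from the 85 members in percent, and right, Rpl3l counts per Rpl3 count, for the kept cells (circles) and excluded cells (squares) of each of the 8 plates. Kept cells lie above excluded cells of their own plate in all 8 plates on both measures.

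Gene by gene, 49 of the 85 members were at least 1.5-fold lower in the excluded cells and 1 was at least 1.5-fold higher. Over all 20067 nuclear genes 12.2% were lower and 45.4% higher by this measure, and 12.9% and 26.4% of those with at least 500 counts. The members had a median log2 ratio of -0.64, with 83 of 85 below 0, and all genes had a median of 0.43 (0.02 for those with 500 counts). Of the large subunit genes 27 of 45 were lower and of the small subunit genes 16 of 31. With TMM or DESeq2 scaling, which shift all ratios by -0.38 and -0.44, the counts became 80 and 81 lower and 1 higher, where 26.2% and 28.7% of all genes were lower and 34.2% and 32.1% higher. Markers of other cell types were higher in the excluded cells (1905 against 438 CPM), as were erythroid markers (307 against 19.1 CPM). Without the 281 excluded and 10 kept cells in which the 36 markers reached 1000 CPM, 43 members were lower, 1 was higher and the summed log2 ratio was -0.41. This filter depends on depth, since 1 marker count passes it in a cell with fewer than 1000 nuclear counts. Excluded cells had a median of 7168 nuclear counts and a minimum of 17, and kept cells had at least 23951.

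Rpl23a, a large subunit protein near the nascent chain exit, was lowest. Its level fell from 50.03 CPM in kept cells (0 to 216 per cell, median 37.1) to 14.3 CPM in excluded cells, a log2 ratio of -1.81 (limits -2.10 to -1.52), and it was at 0 in 16 of 171 kept and 521 of 592 excluded cells. Most of its sequence (82.0% of 66-base stretches) also occurs in other genes. The row Gm10132, which holds 68.1% of them, had 1969 counts and a log2 ratio of -1.61. Next came Rpl37rt (-1.36), Rpl15 (-1.26), Rpl27 (-1.25), Rpl22l1 (-1.14), Rps25 (-1.10), Rpl24 (-1.10) and Rps28 (-1.07).

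Rpl15, another large subunit protein, had 92.6 CPM in kept cells (0 to 207 per cell, median 85.2) and 38.6 CPM in excluded cells. It was at 0 in 2 kept and 423 excluded cells. Rpl24, a protein at the interface of the subunits, had 396 against 185 CPM. In cells excluded only for their mitochondrial share, which had a median of 31086 nuclear counts, the ratios to kept cells were of like size, at -1.67 for Rpl23a, -1.27 for Rpl15 and -1.16 for Rpl24. Depth per cell was lower in all excluded classes than in kept cells (median 225207).

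Other members were closer to the kept level. Rpl8, which lies at the catalytic core of the large subunit, had 649 CPM in kept cells (184 to 1549 per cell, median 642) and 665 CPM in excluded cells, a log2 ratio of 0.04 (limits -0.01 to 0.08). Rpl13a was at -0.05 (limits -0.10 to 0.01), Rpsa at -0.19, Rps14 at -0.21 and Rps15 at -0.22. Levels of members in the excluded and kept cells lay in a similar order, with a Spearman correlation of 0.98 over the 85 members (genes share the libraries and are no replicates). Across the 76 core genes, the ratio correlated with coding length at 0.44 (Pearson) and 0.34 (Spearman), with the log2 kept level at 0.22 and 0.49 and with GC content at 0.12 and 0.10.

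**Figure D4:**
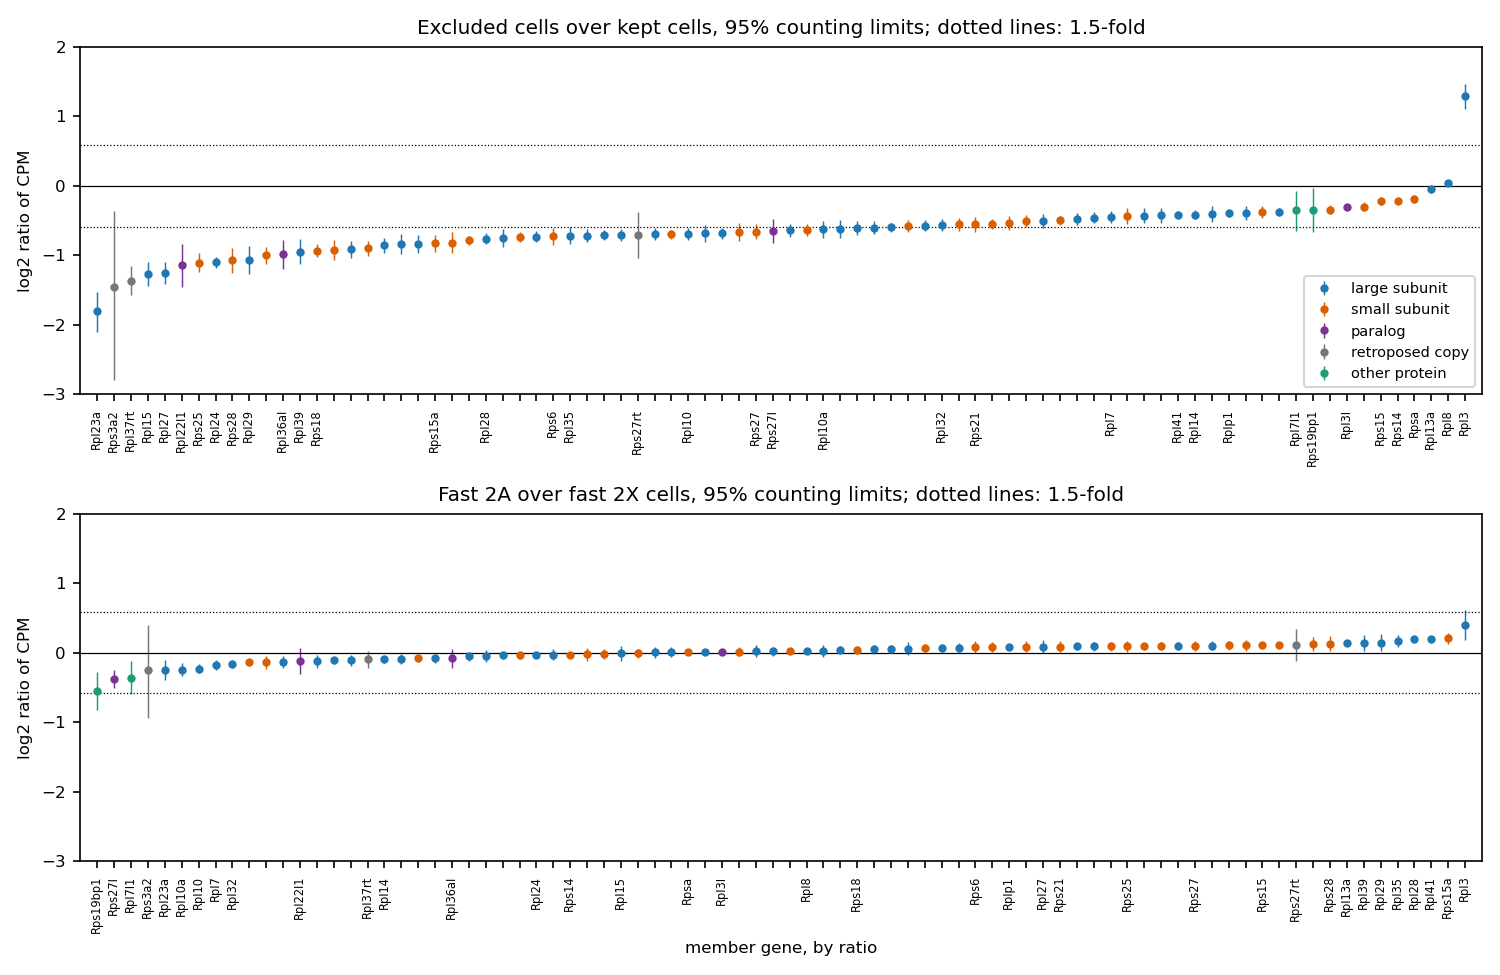
Log2 ratio of CPM for 82 of the 85 members with 95% counting limits, in order of ratio and with names for the members described in the text, for excluded over kept cells (top) and fast 2A over fast 2X cells (bottom), with dotted lines at 1.5-fold. In the top panel 48 members lie at or below the lower line and Rpl3 alone above the upper one, and in the bottom panel all 82 lie between the lines.

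Members with and without a pyrimidine tract near a listed start had similar medians in this comparison. The starts used in these cells were not measured. The 33 members with a tract in a window had a median log2 ratio of -0.64 (-1.26 to -0.05), and the 31 with entries but no tract also had -0.64 (-1.36 to -0.19). Between fast 2A and fast 2X the medians were 0.08 and -0.02. The 5 windows printed above cover this range, from Rpl15 at -1.26 through Rps18 at -0.93 and Rpl14 at -0.41 to Rpl13a at -0.05, with Rpl3l, which has no tract, at -0.30.

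Other components of translation were also compared. Summed log2 ratios of excluded to kept cells were -0.44 for elongation factors, -0.41 for initiation factors, -0.31 for the mitochondrial ribosome and -0.30 for the regulators. Fau was at -0.15 and Rack1 at -0.20. The counts of genes past 1.5-fold that follow stand beside 12.2% lower and 45.4% higher over all nuclear genes. Ribosome biogenesis factors summed to 0.06, with 6 of 42 higher, 4 lower and a median of -0.13, and without Polr1b, left out after its value was seen, the other 41 summed to -0.03 (limits -0.06 to -0.00458). Polr1b, the second subunit of RNA polymerase I, stood at 120 CPM against 23.5 CPM in kept cells, a log2 ratio of 2.35 (limits 2.22 to 2.48). Eef1a1 was at 0.52 and Eef1a2 at -0.74, Eif5a was lowest of the elongation list at -0.86, and Eif3j2 and Eif3j1 were lowest of the initiation list at -1.26 and -1.05. Eif4a3, a helicase of the exon junction complex, was highest there at 0.73. Of the 76 genes taken for the mitochondrial ribosome by name alone, 13 were lower and 1 was higher, with Mrps36 at -1.37 and Mrps6 at 0.71. Of the regulators, Eif4ebp2 was at -0.95, Rps6, itself a member and the target of S6 kinase, at -0.73, Larp1 at -0.43, Mtor at 0.04 and Rptor at 0.27.

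Rpl3 was the only member higher in the excluded cells by 1.5-fold. It had 19.3 CPM in kept cells (0 to 422 per cell, median 15.6) and 47.1 CPM in excluded cells, a log2 ratio of 1.29 (95% limits 1.11 to 1.47). Its paralog Rpl3l had 748 CPM in kept cells (88.8 to 1452 per cell, median 788) and 606 CPM in excluded cells, a log2 ratio of -0.30 (limits -0.35 to -0.26). Rpl3l was counted in all 171 kept cells, and Rpl3 was at 0 in 31 of them.

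In kept cells there were 36516 Rpl3l and 941 Rpl3 counts, or 38.8 Rpl3l counts per Rpl3 count (limits 36.4 to 41.4). The ratio was 43.7 (limits 40.4 to 47.3) in fast 2X and 33.4 (limits 29.4 to 38.0) in fast 2A. It was 16.3 (limits 9.82 to 28.9) in the 2 slow cells, from 260 and 16 counts. The single 2B cell had 74 Rpl3l and 38 Rpl3 counts, a ratio of 1.95 (limits 1.30 to 2.96). This cell carried 4178 CPM of the markers of other cell types and 38108 CPM of the myofiber markers, compared with pooled levels of 438 and 129733 CPM in the kept cells. Neither the slow nor the 2B value has a replicate beyond these cells.

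The ratio of fast 2A to fast 2X was -0.39 on the log2 scale (limits -0.61 to -0.17). It was -0.73 within lane 1 and -0.12 (limits -0.44 to 0.20) within lane 2. Fast 2A was lower with each plate left out in turn, from -0.53 to -0.26. Within single plates the direction was not always kept. In plate 707 there were 42.5 Rpl3l counts per Rpl3 count in 5 fast 2A cells and 32.0 in fast 2X. In plate 710 there were 51.4 in 2 fast 2A cells and 28.4 in fast 2X. Fast 2A was lower in each of the other plates. Without the 8 fast 2X and 1 fast 2A cells rich in markers of other cell types it was -0.49, with 36.2 Rpl3l counts per Rpl3 count in fast 2A and 50.9 in fast 2X.

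Excluded cells had 12.9 Rpl3l counts per Rpl3 count (limits 11.5 to 14.4), from 4490 and 349 counts. Against kept cells this was -1.59 on the log2 scale (limits -1.78 to -1.41), and the ratio was lower in the excluded cells of all 8 plates, at 8.71 to 27.9 compared with 24.1 to 65.2. It was 10.4 in cells excluded for mitochondrial share only, 16.2 for both reasons and 29.3 (limits 15.2 to 64.9) for gene number only. The difference was smaller without the cells rich in markers of other cell types, a filter that depends on depth as given above. With them left out, excluded cells had 29.5 Rpl3l counts per Rpl3 count and kept cells 45.9, a log2 difference of -0.64 (limits -0.97 to -0.29). Rpl3 was then at 25.1 CPM in excluded and 16.6 CPM in kept cells, a log2 ratio of 0.60 (limits 0.26 to 0.93), and Rpl3l was at -0.04 (limits -0.10 to 0.02).

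**Figure D5:**
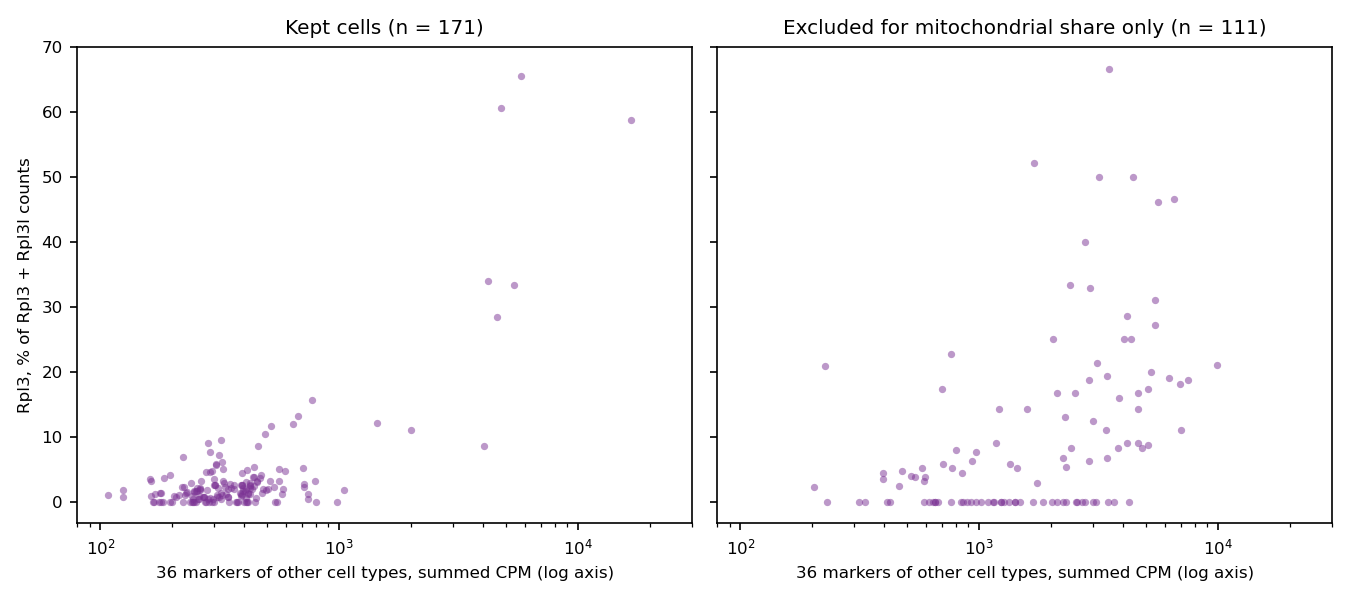
Share of Rpl3 in the summed counts of Rpl3 and Rpl3l, in percent, against the summed CPM of 36 markers of other cell types on a log axis, for the 171 kept cells (left) and the 111 cells excluded for mitochondrial share only (right), 1 point per cell with a count of either gene. In the kept cells the 6 points above 20% lie between 4178 and 16617 CPM of these markers.

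Cell by cell, Rpl3 made up a median of 1.87% of the pair in kept cells and at least 20% in 6 of them. These 6 cells, from 28.4% to 65.5%, held 115 of the 941 Rpl3 counts, and their markers of other cell types summed to between 4178 and 16617 CPM. Of the 10 kept cells with at least 1000 CPM of the markers, they were the 6 with the highest Rpl3 share. Across the kept cells Rpl3 correlated with these markers at 0.69 (Pearson) and 0.37 (Spearman), and Rpl3l at -0.42 and -0.14. Rpl3l and Rpl3 themselves correlated at -0.39 and -0.17. The part of other cells in the Rpl3 level of the marker-rich cells was not tested.

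Of 8734 other genes with at least 500 counts in kept cells, the ones whose CPM rank across the 171 cells was most like that of Rpl3l were Eno3, the muscle enolase (Spearman 0.62), Acta1, skeletal actin (0.56), Tmem38a, a cation channel of the sarcoplasmic reticulum (0.56), and Ak1, adenylate kinase (0.54). For Rpl3 they were Dcn (0.38) and Col4a2 (0.37), which encode extracellular matrix proteins, Afap1l2 (0.36) and Pecam1 (0.35), the endothelial adhesion molecule. Dcn and Pecam1 are themselves among the 36 markers. The values for Rpl3 are low, and its median kept cell held 3 counts.

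The other paralogs and copies took smaller parts of their pairs. Rpl22l1 made up 15.8% (95% limits 15.1 to 16.6) of Rpl22l1 and Rpl22 counts in kept cells and 10.3% (limits 8.41 to 12.4) in excluded cells. Rps27l made up 27.2% of its pair with Rps27 in kept and 27.4% in excluded cells, with 28.6% (limits 27.7 to 29.6) in fast 2X and 22.4% (limits 20.8 to 24.0) in fast 2A. Rpl36al made up 29.3% and 27.1% of its pair with Rpl36a. Among the copies, Rpl37rt made up 25% of its pair with Rpl37 in kept cells and 19.0% in excluded cells. Rps27rt made up 9.42% of its pair with Rps27 in kept and 9.16% in excluded cells. These shares depend on how reads were assigned, since Rps27rt shared 90.6% of its 66-base stretches with other genes, Rps27 98.6%, Rpl36a 84.9%, Rpl22l1 61.2%, Rpl37rt 38.4%, Rpl36al 23.9% and Rps27l 15.9%.

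Within fast 2X cells, RP expression was set against the yield of RNA per cell. The 30 cells with the fewest nuclear counts (median 50006) had an RP share of 1.89%, and the 30 with the most (median 695020) had 2.03%, a log2 ratio of -0.10 (limits -0.12 to -0.09). Without plate 708 it was 0.03, and between the 59 cells with fewer and the 58 with more counts it was -0.0023. At least 1.5-fold, 9 members were lower and 1 was higher, where 22.6% and 19.2% of all genes were lower and higher (10.1% and 11.4% of those with 500 counts). Rpl23a (-1.09), Rps27 (-0.91) and Rps28 (-0.88) were lowest among core genes and Rpl3 was highest at 0.83. Across the 76 core genes these ratios correlated with the excluded over kept ratios at 0.60 (Pearson) and 0.44 (Spearman), and the fast 2X cells are part of the kept cells. Markers of other cell types stood at 905 CPM in the low-yield and 370 CPM in the high-yield cells, and their part in these ratios was not tested.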

How the data were processed

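Single FDB myofibers of 1 mouse (763 cells, 8 library index values taken as plates, 2 lanes) were analysed. The authors mapped reads to GRCm38 (mm10) with added spike-ins, and the submitters' processing notes name STAR 2.5.4b and featureCounts. The deposited gene values are raw UMI counts, an estimated count of captured molecules, and were whole numbers, so none was rounded. Cells were grouped by the study's filters and by their largest Myh gene. Counts were summed per group and divided by the nuclear total, so that depth, from 17 to 1438767 nuclear counts per cell, sets the precision. Limits are exact Poisson (levels), exact conditional binomial (ratios), Clopper-Pearson (shares of a pair) or conditional odds-ratio limits (ratio of ratios). A gene was counted as higher or lower from 1.5-fold on. The ratio step was tested on simulated data. Named members were Rpl3, Rpl3l and other paralogs, the 8 highest and 8 lowest ratios among those with 500 counts and the 5 highest and 5 lowest levels, and from other lists the 3 highest and 3 lowest, of which some are given. Rps18, Rpl14, Rps21, Rps27, Larp1 and Mtor fell outside this rule and were chosen after their values were seen, and some genes that the rule would name are not reported here. The members and lists were chosen with earlier results of these data known. Positions and sequence sharing came from GENCODE M21, and start windows from RefSeq (GRCm38.p6). Python 3.11.15, scipy 1.17.1, edgeR 4.0.16 and DESeq2 1.42.0 (the latter 2 for scaling only) were used. Alternatives covered scaling, averaging over cells, thinning, filters, lanes and minimum counts, and others were chosen after seeing the data.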

Additional observations from a re-analysis of the deposited data

Results flagged for a closer look

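Rows named as RP pseudogenes were outside the comparisons and held signal. The 247 rows, of which 111 had at least 50 counts, summed to 60437 counts, equal to 5.42% of the counts of the 85 members, and the 5 with most counts held 46.4% of them. They stood at 1144 CPM in kept and 621 CPM in excluded cells, a log2 ratio of -0.88 (limits -0.92 to -0.84), and at 0.01 (limits -0.01 to 0.04) between fast 2A and fast 2X. Rpsa-ps10 led with 9888 counts, followed by Rpl14-ps1 with 5717. Reads of such rows cannot be told apart from reads of the parent gene where their sequences are shared. Rps4l and Rpl6l, which were left out for low counts, had 6 and 13 counts, above the 3 counts that a count of 0 allows. There were no control samples for these values.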

How the results depend on the processing

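The cells came from 1 mouse, so that the limits do not cover variation between animals. Depth limited the excluded cells most, and only 85 of 592 reached the 23951 counts used for thinning. No paired analysis was possible because the 2 replicate numbers name sequencing lanes of 1 group and no test was run, and the comparisons within plates and lanes are given as values. The RP share in fast 2A against fast 2X (log2 0.02) became 0.12 with TMM and 0.12 with DESeq2 scaling, -0.011 over the total of all genes, 0.054 as a mean and 0.012 as a median over cells, 0.056 after thinning, 0.0076 with stricter filters (over 8000 genes, under 10% mitochondrial), 0.034 with mt-Rnr1 and mt-Rnr2 left out of the filter, -0.038 in lane 1, 0.053 in lane 2 and 0.044 without boundary cells. The excluded against kept share (-0.50) became, under the same changes where they applied, -0.88, -0.93, -1.48, -0.48, -0.46, -0.53, -0.31, -0.46, -0.47 and -0.54. The low-yield against high-yield share (-0.10) became -0.19 over all genes, -0.17 and -0.16 as mean and median, -0.20 after thinning and -0.0023 between the lower and upper cells by depth. Members past 1.5-fold between fast 2A and fast 2X (0) became 1 as a mean over cells and 1 with no minimum count. Between excluded and kept cells (50) they became 81 with TMM, 82 with DESeq2 and 12 at 2-fold, while the share of all genes that were lower went from 12.2% to 26.2% with TMM and 28.7% with DESeq2. The Rpl3l to Rpl3 ratio in fast 2A against fast 2X (-0.39) became -0.73 in lane 1 and -0.12 in lane 2, and in excluded against kept cells (-1.59) it became -0.98 with stricter filters and -1.17 with the mt-Rnr genes left out. The total of all genes includes the mitochondrial counts that enter the filter, so values over it are not shares of nuclear counts. Mitochondrial counts held a median of 48.0% in excluded and 5.96% in kept cells. The cause of the other changes was not tested.

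Further alternatives were chosen after seeing the data. Without cells rich in markers of other cell types the excluded against kept values were -0.41 for the share and -0.64 for the Rpl3l to Rpl3 ratio. By reason of exclusion the share ratios were -0.56 (mitochondrial share only), -0.17 (gene number only) and -0.47 (both). Leaving out each plate in turn gave -0.012 to 0.063 for the fast 2A share (below 0 without plate 705 or 712), -0.52 to -0.49 for the excluded share, -0.16 to 0.032 for the low-yield share (above 0 without plate 708), 0 to 1 members past 1.5-fold in fast 2A (Rps19bp1, without plate 708, 710 or 712) and 45 to 54 in excluded cells, -0.53 to -0.26 for the Rpl3l to Rpl3 ratio in fast 2A and -1.69 to -1.50 in excluded cells.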
